A study of Mus musculus with 2 samples.

Results

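The 9 genes described here encode subunits of cAMP-dependent protein kinase (PKA: Prkaca, Prkacb, Prkar1a, Prkar1b, Prkar2a and Prkar2b) and isoforms of protein kinase C (PKC: Prkca, Prkcb and Prkce). They were taken by symbol from the rows assigned to annotated genes in both deposited long-read count tables, 9 of 18534 annotated genes with a read. Both libraries come from left cerebral cortex of B6CASTF1/J mice, first-generation hybrids of C57BL/6J and CAST/EiJ, aged 18 to 20 months, and each started from 2 µg of total RNA. They carry the biological replicate numbers 1 and 2 of a single group, name the same donor entry and were compared as replicate 1 against replicate 2. The labels give no treatment, genotype contrast or other tissue. They conflict on sex, female in the sample fields and male in the free text, and do not say whether each library came from its own animal. Every test below therefore compares these libraries and measures a spread that may be technical.

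PKA is held inactive as a complex of a pair of regulatory and a pair of catalytic subunits, and cAMP bound to the regulatory subunits frees the catalytic ones. Type I regulatory subunits are largely cytosolic and type II subunits are mostly held at membranes and the cytoskeleton by A-kinase anchoring proteins. Conventional PKC isoforms, alpha and beta here, need calcium and diacylglycerol, whereas the epsilon isoform needs diacylglycerol only. Both families act in cortical neurons on transmitter release, ion channels and the consolidation of synaptic change.

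The tables held 871524 reads in replicate 1 and 839150 in replicate 2, of which 774629 and 679147 lay on annotated genes without spike-ins. Levels are given as CPM, the count scaled to 1000000 of these annotated-gene reads, and a gene with 0 reads is limited by 3 counts to 3.87 CPM in replicate 1 and 4.42 CPM in replicate 2. Markers of cortical cell types were present in both libraries. For excitatory neurons all 8 of 8 listed markers had reads in both, with a summed level of 2009 CPM in replicate 1 and 1829 CPM in replicate 2, led by Slc17a7 and Nrn1. The sums were 1239 and 1075 CPM for inhibitory neurons (Gad1, Lamp5), 4121 and 4329 for astrocytes (Aldoc, Gja1), and 2200 and 1955 for oligodendrocytes (Mbp, Cnp), in replicate 1 and replicate 2. The 8 microglial markers summed to 784 CPM in replicate 1 and 858 CPM in replicate 2, with C1qa at 103 and 98.7 CPM. Of these, 7 had reads in both libraries, and Cx3cr1 had 0 reads in replicate 1 and 7 in replicate 2. Endothelial markers (Cldn5, Itm2a) summed to 497 and 396 CPM, blood markers (Hba-a1, Hbb-bs) to 461 and 246 CPM, and choroid plexus markers (Ttr, Kl) to 23.2 and 8.83 CPM, with Folr1, Aqp1 and Otx2 at 0 reads in both libraries. Lists of striatal (Ppp1r1b, Penk) and hippocampal (Wfs1, Fibcd1) markers, several of which cortex also expresses, summed to 878 and 776 CPM and to 280.1 and 278.3 CPM. By the exact binomial test described below, 4 of 55 marker genes tested were higher in replicate 1 (7.27%, beside 0.733% of all genes tested) and 0 were lower. They were Hba-a1 (249 and 112 CPM), Gfap (285 and 153), Cldn5 (265 and 172) and Mbp (1489.8 and 1269). Whether the cell makeup of the pieces bears on the subunit genes was not tested.

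All 9 subunit genes were read in both libraries, and the type I regulatory genes and Prkcb carried the highest levels. Prkar1b, a regulatory subunit gene of neurons, had 832 reads in replicate 1 and 729 in replicate 2, which is 1074 and 1073 CPM. Prkar1a, the broadly expressed type I gene, had 676 and 592 reads, or 873 and 872 CPM. These pairs of values lay within 1 CPM of each other, far inside their counting error, and Prkar1b ranked 75th of 18534 genes. The type II genes were low. Prkar2b, the type II form known from neural tissue, had 59 and 54 reads (76.2 and 79.5 CPM), and Prkar2a, its broadly expressed counterpart, had 35 and 28 reads (45.2 and 41.2 CPM). For a bulk tissue these levels cannot tell fewer expressing cells from less RNA per cell. Type I genes made up 94.1% of the regulatory reads in replicate 1 and 94.2% in replicate 2, with 95% Wilson bounds of 92.9 and 95.2 for replicate 1 and of 92.8 and 95.3 for replicate 2.

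The catalytic genes stood between these groups. Prkaca, which encodes catalytic subunit alpha, had 367 reads in replicate 1 and 330 in replicate 2 (474 and 486 CPM, an average of 479.8 ± 8.58, SD over n = 2 libraries). Prkacb, which encodes catalytic subunit beta, had 321 and 314 reads (414 and 462 CPM, an average of 438 ± 33.9). The counting intervals of these catalytic genes overlapped per read. Regulatory reads outnumbered catalytic reads 2.33 to 1 in replicate 1 (95% interval 2.13 to 2.55) and 2.18 to 1 in replicate 2 (1.98 to 2.39), intervals that cover counting error only.

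Among the PKC genes, Prkcb stood well above the others. It had 592 reads in replicate 1 and 591 in replicate 2 (764 and 870.2 CPM), an average of 817 ± 74.9 CPM (SD, n = 2), and made up 75.6% and 80.5% of the reads of the 3 PKC genes. Prkce, the diacylglycerol-dependent epsilon isoform, had 123 and 87 reads (159 and 128 CPM, an average of 143 ± 21.7), and Prkca, the alpha isoform, had 68 and 56 reads (87.8 and 82.5 CPM). The order of all 9 genes by CPM was the same in both libraries. Counting intervals of neighbours nevertheless overlapped in at least 1 library for Prkar1a with Prkcb and Prkaca with Prkacb. They also did for Prkce with Prkca, Prkca with Prkar2b, and Prkar2b with Prkar2a.

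**Figure D1:**
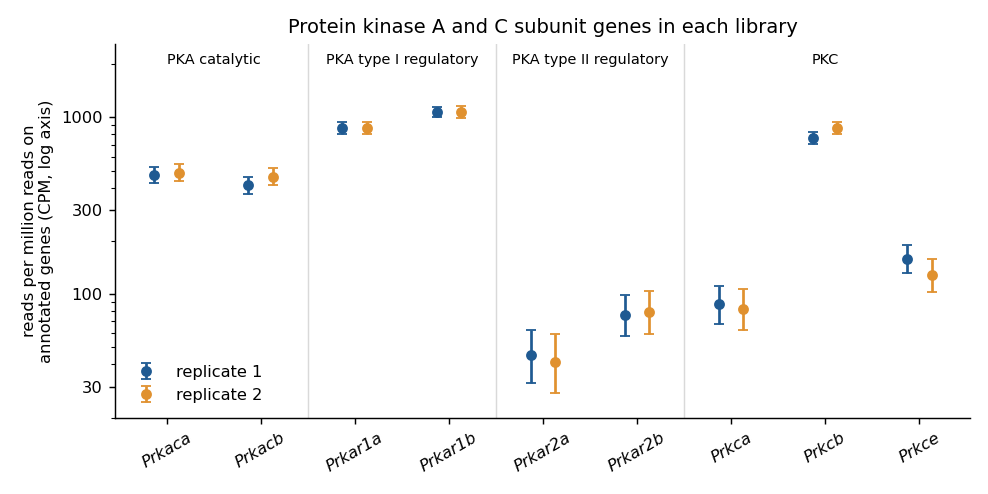
Level of each subunit gene, with genes by role on the horizontal axis and CPM on a log vertical axis; points are replicate 1 and, to its right, replicate 2, and bars are 95% exact Poisson intervals of the count. Prkar1b, Prkar1a and Prkcb lie between 764 and 1074 CPM, the catalytic genes between 414 and 486, and the other 4 genes at or below 159.

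Levels of different genes were also set side by side per length of the models read. Per kilobase, Prkar1b had 440 CPM per kb in replicate 1 and 453 in replicate 2, Prkcb 287 and 334, and Prkar1a 270.3 and 270.5. Prkaca followed with 214 and 220.0 CPM per kb against 106 and 119 for Prkacb, whose transcripts are longer. On this scale Prkaca was 2.02 times Prkacb in replicate 1 and 1.85 times in replicate 2, whereas per read the ratios were 1.14 and 1.05. Each long read was counted once whatever its length, so the ratio per read compares numbers of reads. How far recovery depends on transcript length was not tested, so neither ratio is taken as that of the transcripts. The wider ratio per kilobase comes from the division by length. The 4 lowest genes were Prkce (33.4 and 26.8), Prkar2b (23.8 and 24.7), Prkca (17.0 and 15.2) and Prkar2a (10.2 and 9.41 CPM per kb). Compared with the order by CPM, Prkcb and Prkar1a changed places, as did Prkca and Prkar2b. Both neighbouring pairs had overlapping counting intervals on either scale, as did Prkce with Prkar2b and Prkca with Prkar2a per kilobase. The ratio of regulatory to catalytic levels was 2.33 and 2.23 per kilobase, close to that per read.

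The libraries were then compared gene by gene, which asks how well the levels repeat. None of the 9 subunit genes (0 of 9) passed an adjusted p of 0.05 when the reads of each gene were split by library and tested with a two-sided exact binomial test, with Benjamini-Hochberg adjustment over 9143 genes with at least 20 reads. Over all these genes 182 passed, which is 1.99%, with 67 higher (0.733%) and 115 lower (1.26%) in replicate 1, so a count of 0 among 9 is near this background. Under DESeq2 size factors that split was 153 higher and 90 lower. At an unadjusted p under 0.05 the count was 1 of 9, beside 1075 of 9143 genes (11.8%). That gene was Prkcb, whose log2 ratio of CPM + 1 was -0.19 ± 0.08 (counting SE), with an exact binomial p of 0.0268 and an adjusted p of 0.313. Its level in replicate 1 was 0.878 times that in replicate 2. Under TMM and DESeq2 scaling its log2 ratio was -0.16 and -0.11, with unadjusted exact binomial p of 0.0511 and 0.200. With annotated transcripts only it was -0.27 (p = 0.00395, adjusted p = 0.18, same exact test), and with multi-exon models only -0.23 (p = 0.00861, adjusted p = 0.227). With annotated transcripts only, Prkacb also reached an unadjusted exact p of 0.0355, at a log2 ratio of -0.26 and an adjusted p of 0.461. The largest ratio in size belonged to Prkce, at 0.31 ± 0.20 with an adjusted exact binomial p of 0.617. Prkacb had a log2 ratio of -0.16 ± 0.11, and the other 6 genes lay between -0.06 and 0.13. The median log2 ratio was 0.00088 over the 9 genes and -0.03 over all genes tested.

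**Figure D2:**
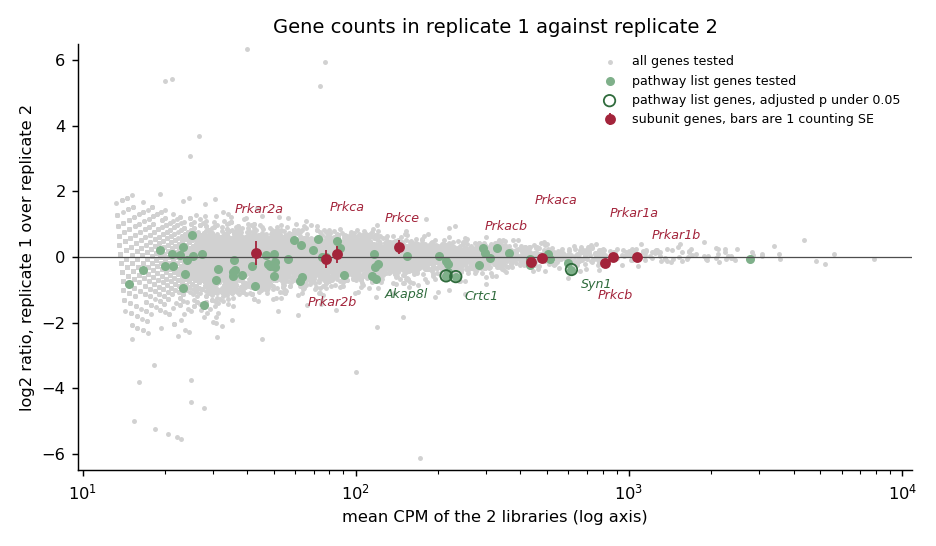
Log2 ratio of replicate 1 over replicate 2 against mean CPM on a log axis; grey points are all 9143 genes tested, green points the tested pathway genes, and red points the subunit genes with 1 counting SE. The subunit genes lie between -0.19 and 0.31, and the 3 ringed pathway genes, Akap8l, Crtc1 and Syn1, lie below 0.

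Genes that act with these kinases were read alongside them, from 9 lists of 104 genes. Of these, 68 had enough reads for the test, 0 were higher and 3 were lower in replicate 1, which is 4.41% beside 1.99% of all genes tested. All 3 came from the lists on the PKA side. Syn1, a synaptic vesicle protein phosphorylated by PKA, had 534 CPM in replicate 1 and 696 in replicate 2, a log2 ratio of -0.38 ± 0.10 (adjusted exact binomial p = 0.00903). Crtc1, a coactivator of the transcription factor CREB, had 185 and 279.8 CPM (-0.60 ± 0.16, adjusted exact binomial p = 0.0152). Akap8l, a relative of the nuclear anchoring protein AKAP95, had 172 and 256 CPM (-0.57 ± 0.17, adjusted exact binomial p = 0.0338). Akap8l lost its call without a minimum of reads, Akap8l and Syn1 lost theirs under DESeq2 size factors, Crtc1 lost its call with multi-exon models only, and Akap8l and Crtc1 lost theirs with annotated transcripts only.

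The abundant genes of each list are given here by CPM in replicate 1 and replicate 2, beside the count called. Among the other catalytic gene and the heat-stable PKA inhibitors (0 of 3 tested), Pkig had 309 and 312 CPM, Pkia 99.4 and 70.7, and Pkib 14.2 and 41.2. Of 18 genes listed with the anchoring proteins, 1 of 13 tested was lower, Akap8l, which also had the highest level. Next came Map2, the dendritic microtubule protein that binds type II subunits, with 112 and 129.6 CPM, and Ezr with 74.9 and 64.8. Adenylyl cyclases, which make cAMP (0 of 6 tested), were led by Adcy2 (90.4 and 146), Adcy1 (106 and 129.6) and Adcy5 (86.5 and 58.9). Phosphodiesterases, which break it down (0 of 9 tested), were led by Pde2a (258 and 308), Pde1b (156 and 152) and Pde1a (120.1 and 113.4). The list of PKA substrates and regulators acting with them (2 of 9 tested were lower) also included Arpp19 (564 and 636) and Arpp21 (519 and 487), after Syn1. On the PKC side, other PKC and PKD genes (0 of 4 tested) included Prkcz (309.8 and 284) and Prkci (69.7 and 48.6). Phospholipases C, which make diacylglycerol (0 of 6 tested), were led by Plcg1 (73.6 and 107), Plcb1 (45.2 and 56.0) and Plch2 (43.9 and 51.5). Diacylglycerol kinases, which remove it (0 of 8 tested), were led by Dgkz (502 and 527), Dgkd (46.5 and 78.0) and Dgkb (51.6 and 48.6). PKC substrates and binding proteins (0 of 10 tested) were led by Nrgn, the neurogranin gene, with 2721 and 2814 CPM, then Gap43 (396 and 469.7) and Marcks (360.2 and 294). The list medians of the log2 ratio ran between -0.34 and -0.02, all 9 below 0, beside -0.03 over all genes tested. These signs belong to scaling by library totals. The median over all genes was -0.0053 under TMM and 0.049 under DESeq2 size factors, and the list medians were not recomputed.

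Long reads also show which first and last exons each molecule joined. A read was called full-splice when its intron chain matched an annotated GENCODE M21 transcript. Reads assigned to an annotated single-exon transcript were counted with these. Incomplete matches hold part of an annotated chain, and other models carry a new combination of known sites or a new site. Reads were grouped below by the donor site of their first exon, with shares taken over the multi-exon reads of the gene.

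Prkaca reads were nearly all of one form. Prkaca-201 (Prkaca at chr8:83972993-83996443, plus strand, mm10) took 342 of 367 reads in replicate 1 and 296 of 330 in replicate 2, or 93.2% and 89.7%. It encodes 351 residues. The alternative Prkaca-202, of 343 residues, had 1 read in replicate 1 and 0 in replicate 2, where the upper 95% Wilson bound was 1.15% of the gene's reads.

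Prkacb used 3 annotated first exons that change the start of the protein (Prkacb at chr3:146729574-146812990, minus strand). The first exon of Prkacb-203 began 200 of 298 multi-exon reads in replicate 1 and 197 of 295 in replicate 2, or 67.1% and 66.8%. That of Prkacb-204 began 43 and 41 reads (14.4% and 13.9%), and that of Prkacb-202 began 34 and 41 reads (11.4% and 13.9%). Prkacb-201, which encodes the longest form with 398 residues, had 1 read in each library. The 3 used exons hold 7, 10 and 46 coding bases in the order named, and the proteins have 338, 339 and 351 residues. The start of Prkacb-202 has the length of the start of Prkaca-201 and encodes the form known as catalytic subunit beta 1. The first 60 coding bases are shown to compare these starts, with the first exon in capitals and the next exon, which the 3 Prkacb forms share, in lower case (GENCODE M21, mm10).
Prkaca-201, first exon chr8:83972993-83973232, plus strand: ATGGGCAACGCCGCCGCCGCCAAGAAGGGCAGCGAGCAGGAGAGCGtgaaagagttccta
Prkacb-202, first exon chr3:146812638-146812960, minus strand: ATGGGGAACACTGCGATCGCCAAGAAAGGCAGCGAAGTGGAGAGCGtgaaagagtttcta
Prkacb-204, first exon chr3:146770516-146770781, minus strand: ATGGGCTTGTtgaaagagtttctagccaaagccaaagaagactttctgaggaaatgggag
Prkacb-203, first exon chr3:146769934-146770261, minus strand: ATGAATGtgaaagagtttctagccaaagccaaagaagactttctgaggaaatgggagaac
Coding regions were judged from the exons of the model to which a read was assigned, not from the ends of the read. Only reads of models that hold a complete annotated coding region were counted here. Among these, the Prkacb-203 form made up 71.9% of 270 reads in replicate 1 and 70.7% of 273 in replicate 2. The Prkacb-202 form made up 12.2% and 15.0%. The share of the Prkacb-203 exon among the annotated first exons, 71.9% and 70.4%, differed by 1.59 percentage points (Fisher's exact test, two-sided, p = 0.709, adjusted p = 1).

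Prkar1a and Prkar1b also used several first exons, but these exons carry no coding bases in the annotation. For Prkar1a (chr11:109649405-109669656, plus strand) the first exon of Prkar1a-201 (109650921-109651073) began 410 of 645 multi-exon reads in replicate 1 and 353 of 559 in replicate 2, or 63.6% and 63.1%. The first exon that GENCODE lists for Prkar1a-202 (109650575-109650624) began 31.3% of multi-exon reads in replicate 1 and 29.0% in replicate 2. Its annotated transcript is a 5-exon form of 171 residues, yet 199 and 158 reads from this exon ran on through 11 exons to the usual 3′ end. That chain is not annotated from this start, was classed as an incomplete match and was the second most read Prkar1a model in both libraries, with 29.4% and 26.7% of all reads of the gene. The donor site of this exon is also internal in another annotated transcript, and molecules of it shortened at the 5′ end would look the same. Whether these reads mark a true start was not tested. The first exon of Prkar1a-203 began 7 and 11 reads. Models that hold the whole coding region of 381 residues, whatever their first exon, took most reads. They had 612 of 676 reads in replicate 1 and 516 of 592 in replicate 2, or 90.5% and 87.2%.

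For Prkar1b (chr5:139017306-139150001, minus strand) the first exon of Prkar1b-201 began 529 of 764 multi-exon reads in replicate 1 and 456 of 661 in replicate 2, or 69.2% and 69.0%. The first exon of Prkar1b-204 (139129968-139130159) began 88 and 81 reads (11.5% and 12.3%), of which 86 and 79 formed 1 unannotated 11-exon chain. Prkar1b-204 itself is annotated only as an incomplete fragment. A further exon (139150535-139150693) began 26 and 16 reads, or 3.40% and 2.42%. It lies 534 bases upstream of the annotated gene and is not a Prkar1b exon in GENCODE M21, where it overlaps exons of Dnaaf5 on the other strand and of Gm15672 on the same strand. RefSeq places a Prkar1b start 10 bases from the deposited start of this exon. In all, models that hold the complete coding region of 381 residues took 646 of 832 reads in replicate 1 (77.6%). In replicate 2 they took 557 of 729 (76.4%).

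In the first-exon test, which used donor sites never found inside an annotated transcript, 0 of 5 testable subunit genes passed, beside 1 of 1268 genes (0.0789%). At an unadjusted p under 0.05 there were 0 of 5 subunit genes and 36 of 1268 genes (2.84%). The Prkar1a-202 site is also internal in another transcript and entered only when such sites were admitted. The share of the Prkar1a-201 exon was then 65.7% in replicate 1 and 66.5% in replicate 2 (Fisher's exact test p = 0.803, adjusted p = 1), and 0 of 7 subunit genes passed, beside 1 of 3164 genes (0.0316%), with 0 of 7 and 3.54% of genes at an unadjusted p under 0.05.

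**Figure D3:**
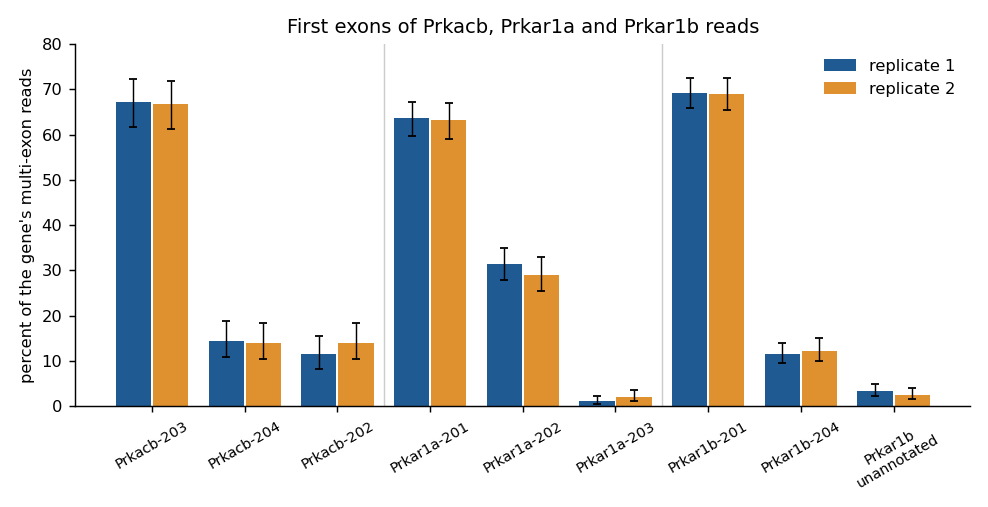
Share of the multi-exon reads of Prkacb, Prkar1a and Prkar1b that began in each first exon, named by an annotated transcript that starts there; paired bars are replicate 1 and replicate 2 and whiskers are 95% Wilson intervals. The leading exon of each gene took between 63.1% and 69.2%, and the intervals of the libraries overlapped for every exon.

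The sequence upstream of these starts is shown from RefSeq (GRCm38.p6, the mm10 assembly), 250 bases before to 50 after 6 RefSeq starts that lie within 50 bases of a used first exon. Of the 9 genes 8 matched the table, with 21 start sites in all, and Prkce did not. Capitals mark TGACG, the core of the cAMP response element bound by the PKA target CREB, and GGGCGG, the GC box, on either strand.
Prkacb promoter, chr3:146770189-146770488, minus strand, start of Prkacb-203: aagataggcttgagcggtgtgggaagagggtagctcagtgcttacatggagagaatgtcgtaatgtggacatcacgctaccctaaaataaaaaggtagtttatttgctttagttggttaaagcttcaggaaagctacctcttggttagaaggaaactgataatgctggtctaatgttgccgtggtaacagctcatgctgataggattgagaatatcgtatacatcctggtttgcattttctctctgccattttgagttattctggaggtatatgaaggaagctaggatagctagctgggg
Prkacb promoter, chr3:146812897-146813196, minus strand, start of Prkacb-202: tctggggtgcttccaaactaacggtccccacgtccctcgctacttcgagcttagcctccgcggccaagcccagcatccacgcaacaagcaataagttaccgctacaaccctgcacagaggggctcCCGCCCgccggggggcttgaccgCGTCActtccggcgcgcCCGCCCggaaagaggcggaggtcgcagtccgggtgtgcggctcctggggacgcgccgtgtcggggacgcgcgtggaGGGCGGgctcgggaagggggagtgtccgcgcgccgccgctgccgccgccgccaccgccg
Prkar1a promoter, chr11:109650292-109650591, plus strand, start of Prkar1a-202: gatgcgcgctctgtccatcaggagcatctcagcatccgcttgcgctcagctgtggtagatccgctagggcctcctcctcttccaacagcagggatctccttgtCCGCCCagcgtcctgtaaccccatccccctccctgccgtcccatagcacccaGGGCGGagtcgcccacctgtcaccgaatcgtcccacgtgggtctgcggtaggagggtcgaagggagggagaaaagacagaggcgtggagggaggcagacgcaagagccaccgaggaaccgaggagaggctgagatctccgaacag
Prkar1a promoter, chr11:109650699-109650998, plus strand, start of Prkar1a-201: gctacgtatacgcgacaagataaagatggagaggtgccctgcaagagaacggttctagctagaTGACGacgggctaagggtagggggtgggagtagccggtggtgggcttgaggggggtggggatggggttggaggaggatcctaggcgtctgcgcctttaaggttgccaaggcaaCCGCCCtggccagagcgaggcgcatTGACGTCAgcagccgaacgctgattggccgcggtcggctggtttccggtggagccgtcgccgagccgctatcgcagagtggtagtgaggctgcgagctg
Prkar1b promoter, chr5:139129703-139130002, minus strand, start of Prkar1b-201: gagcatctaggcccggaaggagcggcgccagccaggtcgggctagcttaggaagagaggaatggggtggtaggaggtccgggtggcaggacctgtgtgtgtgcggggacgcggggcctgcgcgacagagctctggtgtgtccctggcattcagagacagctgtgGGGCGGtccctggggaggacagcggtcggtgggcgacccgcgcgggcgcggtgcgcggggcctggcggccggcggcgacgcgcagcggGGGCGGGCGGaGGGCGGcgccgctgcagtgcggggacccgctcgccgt
Prkar1b promoter, chr5:139150654-139150953, minus strand, start of the unannotated exon: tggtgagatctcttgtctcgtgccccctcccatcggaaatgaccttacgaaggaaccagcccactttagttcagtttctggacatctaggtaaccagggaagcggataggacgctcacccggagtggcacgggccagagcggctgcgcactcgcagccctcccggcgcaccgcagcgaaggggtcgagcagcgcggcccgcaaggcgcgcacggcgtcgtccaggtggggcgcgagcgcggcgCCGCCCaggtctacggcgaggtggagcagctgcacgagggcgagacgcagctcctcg
The full element TGACGTCA was found in 2 of 21 windows, both overlapping windows of Prkar1a, 1 of which is the Prkar1a-201 start above, and in 588 of 32851 windows of all genes (1.79%). The part TGACG, which any full element also holds, was in 7 of 21 windows and in 20.8% of all windows. GGGCGG was in 12 of 21 and 35.7%. TATAAA, the TATA box, was in 1 of 21 and 13.6%, and that window belongs to a Prkacb start that is not shown. The Prkacb-203 window, whose exon began most Prkacb reads, held neither capital motif, whereas the Prkacb-202 window held both. A match of letters is a description and not evidence of binding.

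Prkcb reads used a pair of alternative last coding exons, which give the known beta I and beta II isoforms (Prkcb at chr7:122288751-122634402, plus strand). The beta II exon, last in Prkcb-202, ended 474 of 535 multi-exon reads in replicate 1 and 499 of 543 in replicate 2, or 88.6% and 91.9%. The beta I exon, last in Prkcb-201, ended 59 and 41 reads, or 11.0% and 7.55%. It lies downstream of the beta II exon. The proteins have 673 and 671 residues and differ only after the shared exons. The coding bases of each last exon with the stop codon are shown, with capitals where the aligned bases differ or have no partner; 88 bases were identical.
Prkcb-202, beta II, chr7:122627656-122627814, plus strand: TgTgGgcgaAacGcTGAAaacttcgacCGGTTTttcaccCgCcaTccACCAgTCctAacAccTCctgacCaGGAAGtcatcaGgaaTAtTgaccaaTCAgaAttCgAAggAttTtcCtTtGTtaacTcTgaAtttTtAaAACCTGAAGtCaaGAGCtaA
Prkcb-201, beta I, chr7:122633745-122633897, plus strand: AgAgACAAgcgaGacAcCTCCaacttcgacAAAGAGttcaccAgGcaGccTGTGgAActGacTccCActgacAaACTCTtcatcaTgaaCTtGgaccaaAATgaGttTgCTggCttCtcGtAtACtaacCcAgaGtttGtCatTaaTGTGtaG
The beta II share among reads ending in either exon was 88.9% of 533 in replicate 1 and 92.4% of 540 in replicate 2, a difference of -3.48 percentage points (Fisher's exact test, two-sided, p = 0.0584, adjusted p = 1). This test needed sites that are also internal, since an annotated transcript holds both exons, and under the stricter rule 0 subunit genes could be tested. With such sites 0 of 2 subunit genes passed, beside 2 of 1972 genes (0.101%) and 2.99% at an unadjusted p under 0.05, and under the stricter rule 0 of 444 genes passed, with 15 (3.38%) at an unadjusted p under 0.05. In models that hold a whole coding region, 401 of 454 reads were beta II in replicate 1. In replicate 2 this was 425 of 460. A single-exon annotated model over the beta I exon and part of the intron before it, Prkcb-208, had a further 37 and 35 reads, which cannot be given to either isoform.

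**Figure D4:**
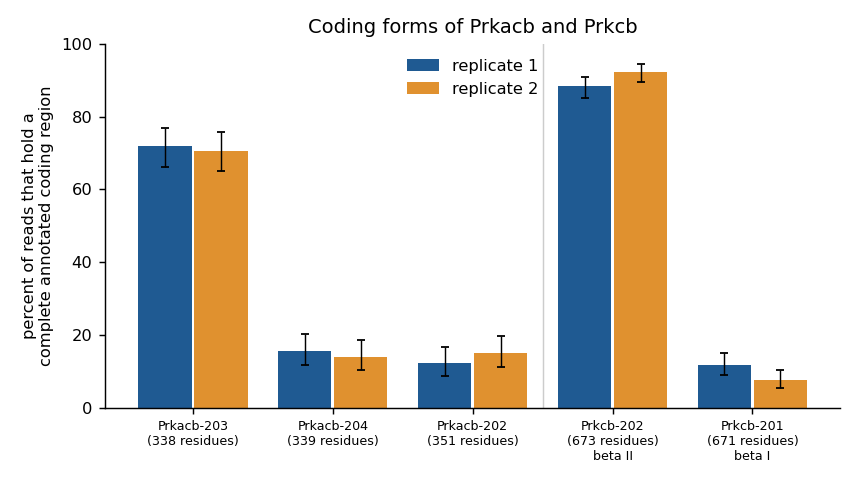
Share of each coding form among reads of models that hold a complete annotated coding region, for Prkacb (left) and Prkcb (right). Paired bars are replicate 1 and replicate 2, and whiskers are 95% Wilson intervals. Prkacb-203 made up 71.9% and 70.7%, and Prkcb-202, the beta II form, 88.3% and 92.4%.

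The remaining genes showed 1 main form each. Prkar2a-201, of 402 residues, took 29 of 35 reads in replicate 1 and 21 of 28 in replicate 2. Prkar2b-202, of 416 residues, took 50 of 59 and 41 of 54, and Prkar2b-201, which splices once more after the stop codon, had 3 and 2 reads. Prkca-201, an 8409-base transcript of 672 residues, took 35 of 68 and 27 of 56 reads. Prkce-202, of 6254 bases and 737 residues, took 62 of 123 and 45 of 87. Inside the genes, exons that any read skipped were rare. An 83-base exon of Prkcb was left out by 1 of 473 reads in replicate 1 and 6 of 480 in replicate 2. An unannotated 30-base exon of Prkce was present in 3 and 1 reads and absent from 84 and 55. Over all 9 genes the share of the most read model passed the Fisher test in 0 of 9, beside 10 of 5961 genes (0.168%), with 0 of 9 and 401 of 5961 (6.73%) at an unadjusted p under 0.05.

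Reads did not span every transcript alike. Full-splice reads made up 71.6% of subunit reads in replicate 1 and 71.3% in replicate 2, beside 71.0% and 67.9% over all annotated genes. Prkaca was the most complete, with 93.5% and 89.7%, and Prkca (51.5% and 48.2%) and Prkce (50.4% and 51.7%), the longest transcripts, were the least. The Prkcb share, 82.8% and 83.6%, includes the 37 and 35 reads of the single-exon Prkcb-208. Of 6116 genes with at least 20 reads in each library, the 5977 with a full-splice read were placed in length classes. Genes without one were left out, which raises the medians. The median share was 85.8% below 2000 bases, 68.5% between 3000 and 4000 bases, and 38.1% at 6000 bases and above. Against the median of their own length class, 7 of 9 subunit genes were higher. The exceptions were Prkar1b (61.4% and 60.4%, class median 75.9%) and Prkar1a (59.6% and 57.4%, class median 68.5%), the genes with the unannotated 11-exon chains above. For Prkca, 27 and 22 reads (39.7% and 39.3%) were single-exon models classed as genomic, and the deposited main one lies in the last exon. For Prkce, 34 and 28 reads (27.6% and 32.2%) were single-exon models classed as incomplete matches. Such reads count towards the gene but carry no information on its isoform.

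**Figure D5:**
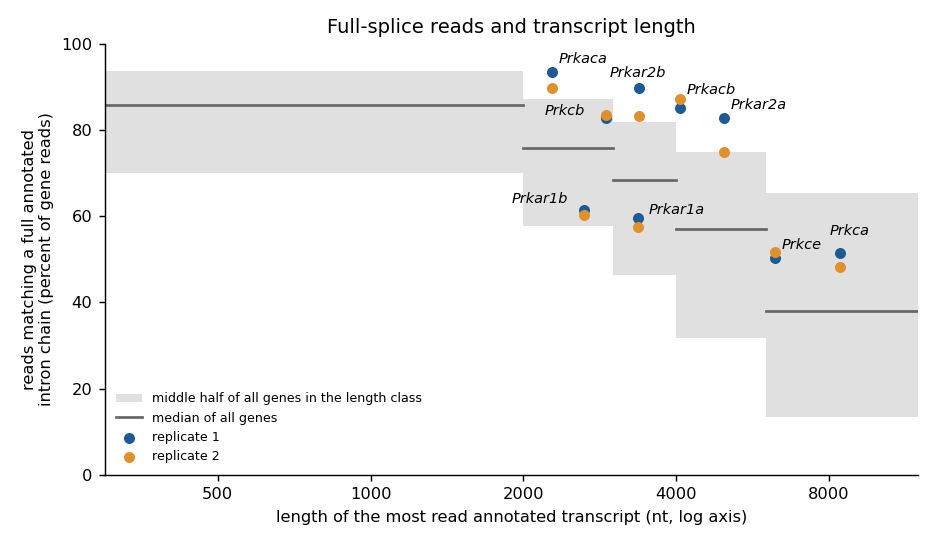
Full-splice reads as a share of the reads of each subunit gene, against the length of its most read annotated transcript on a log axis, with a point for replicate 1 and one for replicate 2. Grey blocks are the interquartile range of all genes with a full-splice read in 5 length classes and dark lines their medians. Prkar1a and Prkar1b lie below the line of their class.

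Some reads that start inside a gene recurred at the same exon. For Prkar1b, 95 of 764 multi-exon reads in replicate 1 and 82 of 661 in replicate 2 began in an internal annotated exon (12.4% in each library), among them 37 and 32 at the exon 139050658-139050816. For Prkcb, 59 and 61 reads began in internal exons (11.0% and 11.2%). Of these, 24 and 21 had their first donor site at the end of the annotated exon 122568134-122568307. For Prkce the share was 21.3% in replicate 1 and 11.9% in replicate 2, on 19 and 7 reads. The remaining genes lay between 1.43% (Prkaca in replicate 1) and 8.82% (Prkca in replicate 2). Whether these are true starts or shortened molecules was not tested.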

How the data were processed

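Long-read RNA sequencing was measured in 2 libraries of 1 group. Per the file headers, each table the authors deposited holds whole read counts per transcript model of a single library, not normalized. The deposited annotation names TALON as the source of the models, and the deposited notes name mm10 and GENCODE M21. No source used here states the aligner, the filters or the orientation of reads. Counts were summed per annotated gene, spike-in contigs were left out, and models were matched by intron chain. CPM is per 1000000 reads on annotated genes, and log2 ratios are replicate 1 over replicate 2 on CPM plus a pseudocount of 1. Gene counts were compared by an exact binomial test (at least 20 reads in total) and model, first-exon and last-exon shares by Fisher's exact test (at least 20 reads in each library), with Benjamini-Hochberg adjustment over all genes (Python 3.11.15, scipy 1.17.1). Both tests were tested on simulated data with known changes. edgeR 4.0.16 TMM and DESeq2 1.42.0 size factors (R 4.3.3) served as alternatives. SDs are over these libraries, and intervals cover counting error only, since reads without molecular identifiers need not be independent molecules. The members and lists were chosen with earlier results of these data known; in each pathway list the 3 most abundant genes and every called gene are named, in each marker list the 2 most abundant, except for 2 genes that are not reported here, and of the members every model with at least 5 reads over both libraries or 5% of the reads of its gene was tabulated.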

Additional observations from a re-analysis of the deposited data

Results flagged for a closer look

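Reads that the deposited tables class as antisense lay opposite the subunit genes and entered no comparison above. For 7 of 9 genes they exceeded the limit of 3 counts in both libraries, and the orientation of the reads is not stated, so their strand is uncertain. Opposite Prkaca there were 9 reads in replicate 1 and 7 in replicate 2, and opposite Prkacb 6 and 5. Opposite Prkar1a there were 28 and 62, and opposite Prkar1b 35 and 82. Among the PKC genes, Prkca had 11 and 51, Prkcb 46 and 42, and Prkce 31 and 62. Over all 9 genes there were 169 such reads in replicate 1 and 321 in replicate 2, where antisense-classed reads made up 8.85% and 16.9% of all mouse reads. Of these 169 and 321 reads, 1 and 9 were multi-exon, and 132 and 177 overlapped an annotated exon of the gene. The overlap differed by gene. For Prkar1a it was 27 of 28 and 61 of 62 reads, but for Prkca 1 of 11 and 5 of 51. For Prkce it was 24 of 31 in replicate 1 and 18 of 62 in replicate 2. The differences between libraries were not tested.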

How the results depend on the processing

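Among the values recomputed, 213 kept their direction and call or stayed within their spread, 49 moved, 6 lost a call and 13 changed sign. No subunit gene was called under any setting tried. With reads of annotated transcripts only, 55 genes were called in place of 182, 1 pathway gene in place of 3 and 1 major model share in place of 10. The regulatory to catalytic ratio was then 1.55, the type I share 91.98%, the Prkaca share of catalytic reads 53.8% and the Prkcb share of PKC reads 85.4%. With multi-exon models only, 78 genes were called, the type I share was 94.2% and the Prkcb share 82.9%. DESeq2 size factors called 243 genes, of which 1 was a pathway gene. Matching models by intron chain and class called 112 major model shares, and admitting sites that are also internal called 2 last exon shares in place of 0. Of 9 genes, 5 kept their place in the order per kilobase, 4 with annotated transcripts only and 7 with multi-exon models only. Full-splice reads were 76.9% of multi-exon subunit reads, against 71.4% of all subunit reads. The sign changes were all in uncalled differences. Under DESeq2 the log2 ratio was 0.041 for Prkaca and 0.016 for Prkar2b. It was -0.0099 for Prkar1a and -0.039 for Prkar1b with annotated transcripts, and -0.0043 and -0.0019 with multi-exon models. The first exon difference of Prkar1a was -0.855 percentage points with full-splice models and -0.773 with shared sites. The major model difference with annotated transcripts was -0.292 for Prkaca, 0.989 for Prkacb and -0.855 for Prkar1a, and without incomplete and genomic models it was 0.937 for Prkacb and 1.13 for Prkce. The cause of these changes was not tested. No paired analysis was possible because both libraries belong to 1 group. Genes with few reads, Prkar2a and Prkar2b above all, have wide counting intervals, and 2 libraries give an SD of low precision.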
